A study of Mus musculus with 62 samples.

Results

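Dimethylation of histone H3 at lysine 4 (H3K4me2) was compared between quadriceps of exercised (Ex) and sedentary (Sed) mice at 21611 regions that both groups shared. These regions were pairs of peaks, 1 from the Ex list and 1 from the Sed list, that covered at least 50% of each other. They made up 63.6% of the 33989 Ex peaks and 61.4% of the 35202 Sed peaks. The comparison rests on 4 of the 62 libraries of the series, 2 Ex and 2 Sed, each made by chromatin immunoprecipitation and sequencing (ChIP-seq) with a rabbit antibody to H3K4me2.

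All mice were wild-type males labelled C57BL/6, which the study's methods give as C57BL/6J. Ex mice were housed alone with a freely accessible running wheel for several weeks from young adulthood and were killed within hours of their last run, and Sed mice were housed alone without a wheel. Each library came from 1 quadriceps of 1 mouse, so the replicates are separate animals, whole muscle was used, and nuclei of vessels, connective tissue and resident immune cells were present beside those of muscle fibers. Each group also had 1 library of input chromatin sequenced without antibody. The H3K4me2 libraries held 21140891 and 21639809 tags in Ex and 20118788 and 19560570 in Sed, and the inputs held 17349120 in Ex and 19307672 in Sed. Tags are reads kept once per mapped position.

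H3K4me2 is laid down by methyltransferases recruited to promoters and enhancers. It marks elements that are active as well as elements that are poised, and it tracks open chromatin. Acetylation of lysine 27 (H3K27ac) follows the activity of an element more closely and is turned over within hours. Quadriceps is a mostly fast, glycolytic muscle, and endurance training is known to raise its mitochondrial and capillary content and to shift its fast fibers toward more oxidative types.

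A level is given here as the log2 tag value of a region minus the log2 of its width in kb, relative to the median of that library over the 21611 regions, so that 0 is the middle region of a library. A difference is the Ex mean minus the Sed mean on that log2 scale, and 1 is a 2-fold difference. The peak lists were made and normalized separately for each group. For that reason no test was run between them, and regions were counted where the difference passed a fold and the 2 Ex libraries lay wholly above or wholly below the 2 Sed libraries.

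By that count 20 regions differed over 2-fold, 0.0925% of those matched, of which 2 (0.00925%) were higher and 18 (0.0833%) lower in Ex. Stretches of 100 bases are shown for 5 of the 18 lower regions, because each holds a match to a short pattern searched for a factor family known in muscle. The AP-1 and MEF2 patterns allowed any base at their inner positions, so those matches are not shown to be sites of the factors. They are read from the + strand of GRCm38.p6, the assembly called mm10 in the peak lists. Capitals mark the match, which can lie on either strand.
Ppp3ca, chr3:136833568-136833667, with the AP-1 motif TGANTCA: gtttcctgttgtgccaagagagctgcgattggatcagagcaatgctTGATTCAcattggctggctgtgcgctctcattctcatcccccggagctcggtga
Kif26b, chr1:178523251-178523350, with the MEF2 motif, CTA and TAG with 4 bases between them: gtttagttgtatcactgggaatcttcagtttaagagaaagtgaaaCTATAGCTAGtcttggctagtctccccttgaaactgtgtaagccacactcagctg
Atp2c1, chr9:105535915-105536014, with the E-box CAGCTG bound by myogenic factors: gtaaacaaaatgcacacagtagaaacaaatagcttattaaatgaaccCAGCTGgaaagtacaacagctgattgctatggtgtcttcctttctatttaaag
Tmem100, chr11:90045847-90045946, with the TEAD motif GGAATG on the opposite strand: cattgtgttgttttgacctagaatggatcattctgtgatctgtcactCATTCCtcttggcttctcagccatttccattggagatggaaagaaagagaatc
Onecut1, chr9:74905416-74905515, with the NFAT core GGAAAA on the opposite strand: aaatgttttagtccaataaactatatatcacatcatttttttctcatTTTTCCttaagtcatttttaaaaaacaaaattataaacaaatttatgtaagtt

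These matches are descriptions of the sequence, since the same letters were common throughout. In 500-base windows at the centers of the regions, counting either strand, the loose AP-1 pattern was present in 20% of the 20 regions and in 10.8% of all matched regions. It was also present in 13.9% of the lowest of 4 equal bins of H3K4me2 level, where most of the 20 lie. The E-box was found in 35.0% of the 20, in 34.9% of that lowest bin and in 29.1% of all, and NFAT in 40.0%, 40.3% and 36.9%. The loose MEF2 pattern was found in 5%, 7.44% and 6.33%, and that of TEAD in 35.0%, 24.0% and 21.5%. The motif of estrogen-related receptors (ERRs), TCA followed directly by AGGTCA, was in none of the 20 windows and in 0.921% of all. The median GC content was 47.2% in the 20 windows and 54.2% in all.

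The largest difference lay 43.6 kb downstream of the start of Onecut1, a homeobox transcription factor gene, in intergenic sequence. Its levels were -2.30 and -2.21 in Ex and -0.72 and -0.56 in Sed, a difference of -1.62 or 3.08-fold. The next was 15.3 kb downstream of Tmem100, a membrane protein gene expressed in endothelium, with -1.30 and -1.22 in Ex against 0.13 and 0.43 in Sed and a difference of -1.54. Neither locus showed overlap between groups, and the Tmem100 region also overlapped a region of lower H3K27ac in Ex. Upstream of the kinesin gene Kif26b, the levels were -1.78 and -2.06 in Ex and -0.88 and -0.43 in Sed.

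Among the 20 regions, 3 were nearest to genes of the calcineurin pathway, in which the calcium-dependent phosphatase calcineurin releases NFAT factors to the nucleus. A fast-to-slow shift of fibers is known to depend on this pathway. The gene of the calcineurin catalytic subunit Ppp3ca held both of its regions in introns, and they differed in opposite directions. At 163 kb from the start the levels were -2.229 and -1.497 in Ex and -0.70 and -0.78 in Sed, and at 35.3 kb they were -0.49 and -0.35 in Ex and -1.27 and -1.65 in Sed. The differences were -1.13 and 1.03. Without the division by width they were -0.87 and 2.01. With each group's input subtracted they were 0.17 and 0.18, with replicates overlapping. The region nearest to Nfatc2, which encodes an NFAT factor, lay 117 kb from its start. Its levels were -0.51 in both Ex libraries and 0.64 and 0.49 in Sed. Its Ex peak was 1491 bases wide against 751 in Sed. Its difference of -1.07 was -0.04 without the division by width and -0.06 with input subtracted.

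The other region that was higher in Ex lay in an intron of Ksr1, which encodes a scaffold of the RAF-MEK-ERK kinases, with -1.57 and -1.24 in Ex and -2.22 and -2.76 in Sed. Ier5, an immediate early response gene, had the region with the highest level of the 20, at 0.01 and -0.11 in Ex against 0.98 and 0.96 in Sed. Regions lower in Ex were also nearest to Atp2c1 (difference -1.11), a Golgi calcium and manganese pump gene, to Atp5s (-1.08), which encodes an ATP synthase accessory subunit, and to Mrps18a (-1.02), which encodes a mitochondrial ribosomal protein. Others were nearest to Gm13580, D930015E06Rik, Cdkl4, Mir701, 4930552P12Rik, Plce1, Gabra3 and Sel1l3, with differences from -1.17 to -1.002. None of the 20 was classed as a promoter, 14 were intragenic and 6 intergenic. Of the 18 lower regions, 14 overlapped an H3K4me2 peak in the sedentary wild-type quadriceps set named Quad, and 15 overlapped one in the set named Wt. Of all Ex and all Sed peaks, 81.7% and 81.8% overlapped one in Quad, and 81.5% and 81.9% one in Wt.

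The 2-fold limit fell in a continuous run of values. Just inside it were Sel1l3 (-1.002), Gabra3 (-1.006) and Plce1 (-1.02). Just outside were a region 9.62 kb upstream of Tead1 and an intergenic region 86.0 kb upstream of Gm4814, at -0.999 and 0.999, and a region near Gm9926 at 0.998. Gm4814 was the higher in Ex, with 0.35 and 0.20 against -0.70 and -0.75. Tead1, which encodes a TEAD factor that drives contractile genes, had -1.38 and -1.37 in Ex against -0.45 and -0.31 in Sed. Further regions higher in Ex, with differences of 0.90 to 0.97, lay at Commd10, Ndfip1, Rab3gap1, Mir5709 and C030034L19Rik and at the promoter of Klhdc9, where levels were -0.13 and 0.11 in Ex and -0.63 and -1.25 in Sed.

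**Figure D1:**
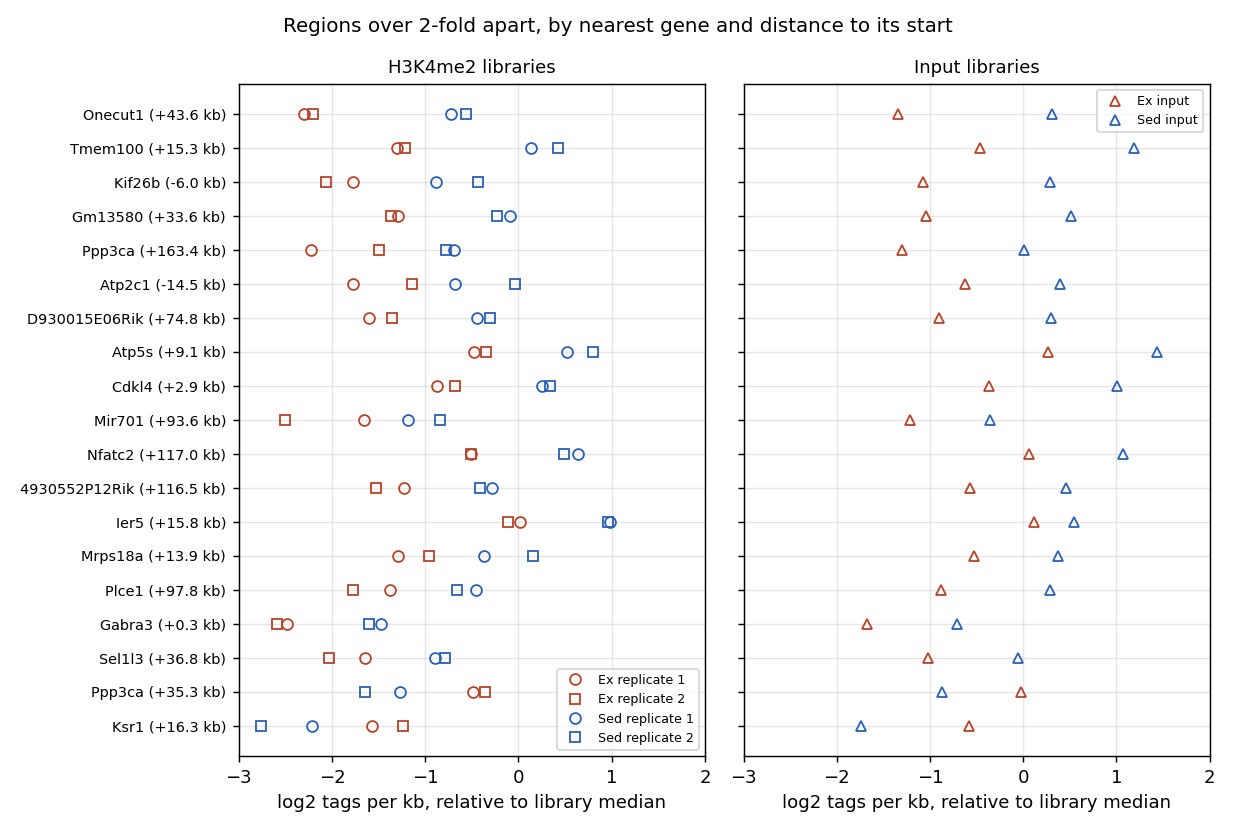
Levels of 19 of the 20 regions over 2-fold apart (rows, named by nearest gene and distance to its start) in log2 tags per kb relative to the library median, with each H3K4me2 library as a point on the left and each input library on the right. The 2 Ex and 2 Sed libraries separate in every row by the way the regions were chosen, and the input libraries differ in the same direction in all 19 rows, for example -1.34 in Ex and 0.31 in Sed at Onecut1.

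The input libraries, which carry no H3K4me2 selection, differed in the same direction as H3K4me2 at 18 of the 18 lower and 2 of the 2 higher regions. At the Onecut1 region the input level was -1.34 in Ex and 0.31 in Sed, and at Tmem100 it was -0.47 and 1.18. With each group's input subtracted, the Onecut1 difference became 0.03 and the Tmem100 difference 0.11. Of the 20, only the Ier5 region then still differed over 1.5-fold in the same direction without overlap, at -0.59. Its Ex peak was 3743 bases wide and its Sed peak 1876. Without the division by width, and with no input subtracted, its difference was 0.02. Width cancels where input is subtracted, so the -0.59 does not depend on that division.

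The same held across the genome. The H3K4me2 difference had a Spearman rho of 0.562 with the input difference and -0.570 with the log2 ratio of Ex to Sed peak width over the 21611 regions, which share the same libraries and, for each region, the same width. The deposited values of a row are taken to be a regularized logarithm, which draws the input and H3K4me2 values of a row toward each other, so the input column is not independent of the mark. How much of any difference goes with input, width or this drawing together was not tested.

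**Figure D2:**
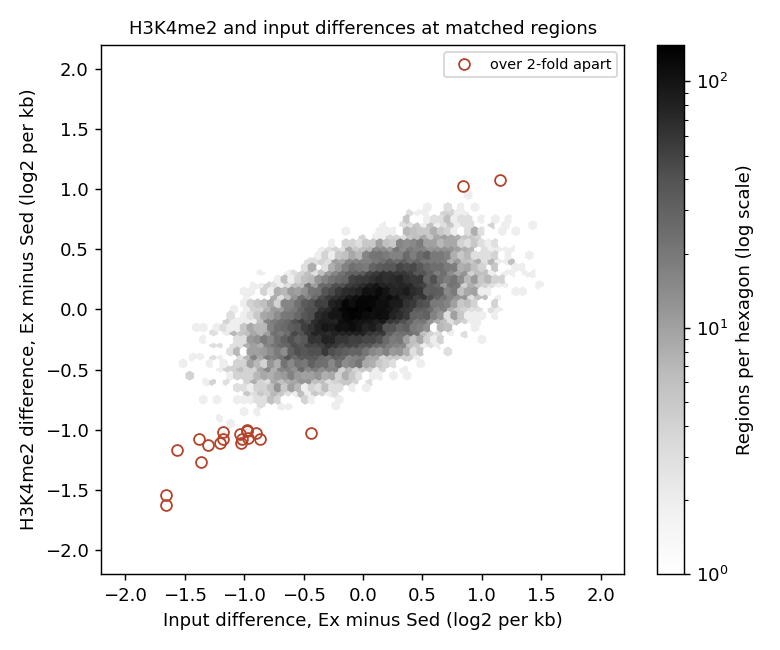
Ex minus Sed difference of H3K4me2 (vertical) against that of input (horizontal), both in log2 tags per kb, over the 21611 matched regions, with darker hexagons holding more regions on a log scale. The 20 regions over 2-fold apart (circles) lie at the 2 ends of a slanted cloud whose Spearman rho was 0.562.

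At a lower limit of 1.5-fold, 640 regions differed (2.96%), 291 higher (1.35%) and 349 lower (1.61%) in Ex. Input differed in the same direction at 283 of the 291 and 340 of the 349. With input subtracted, 14 of the 291 and 12 of the 349 still passed in the same direction, and without the width correction 55 and 105 did. Among the 6780 pairs of peaks whose widths were within 1.1-fold of each other, levels of 74 regions passed when those pairs were centered alone. Whatever the size, Ex and Sed replicates were fully separate at 6059 regions higher in Ex (28.0%) and 5814 lower (26.9%).

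Pairs of single libraries give the spread that these counts stand against. Ex replicates differed over 1.5-fold from each other at 1.76% of regions and Sed replicates at 2.33%. An Ex library and a Sed library differed at 5.21% to 6.78%. Among pairs of near-equal width the shares were 1.46% and 1.92% within groups and 2.37% to 3.47% between them. Libraries of different groups were therefore further apart than replicates, by a margin that was smaller where widths matched. Since the lists were also processed apart, treatment and list cannot be told apart in this margin.

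The 2 other sets of untreated quadriceps in the series, named Quad and Wt, differed more from Sed than Ex did, although all 3 sets are labelled wild-type, sedentary C57BL/6. They are not equivalent references. The study lists fewer unique reads for the Wt H3K4me2 libraries than for those of Sed. By its methods, wild-type littermates of its transgenic mice were used as their controls, and other mice were purchased. What these differences contribute was not tested. The share over 1.5-fold without overlap was 9.49% of 23965 matched regions between Sed and Quad, 12.8% of 23332 between Sed and Wt, and 16.7% of 25720 between Quad and Wt. At 2-fold the shares were 0.739%, 1.78% and 2.69%. The SD of the differences was 0.26 between Ex and Sed, and 0.35, 0.39 and 0.43 in the pairs of untreated sets. Ex and Sed share the Sed libraries with 2 of these comparisons.

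**Figure D3:**
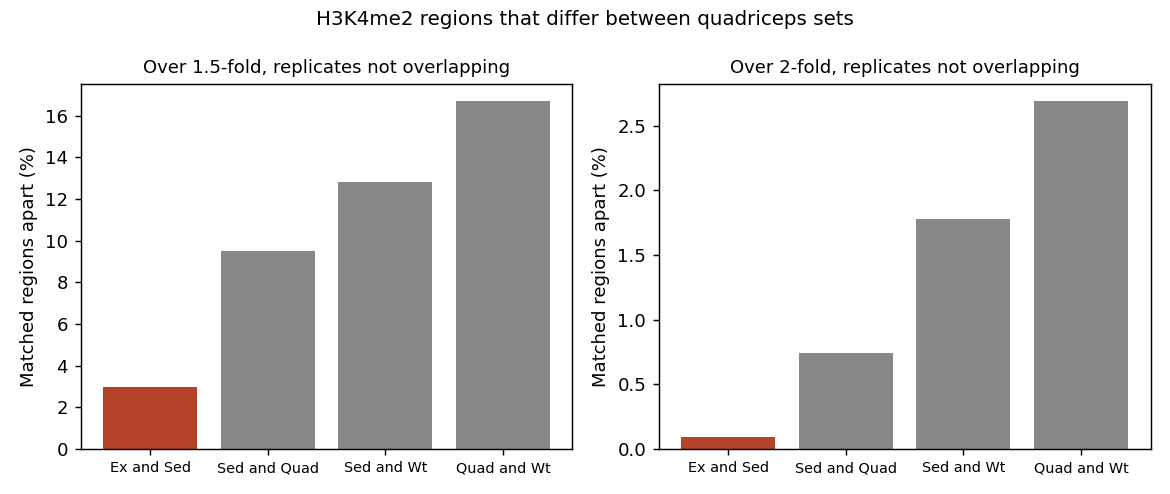
Share of matched regions (vertical, percent, from 0) that differed over 1.5-fold (left) or over 2-fold (right) with no overlap of replicates, for Ex and Sed (red) and for 3 pairs of untreated quadriceps sets (grey). Ex and Sed were the closest pair, with 2.96% at 1.5-fold against 9.49% to 16.7%.

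Regions with low levels held most of the larger differences. The share over 1.5-fold was 6.11% in the lowest of 4 equal bins of level, 2.78% and 2.28% in the middle bins and 0.685% in the highest. Promoters, which have the highest levels, had 1.70% of 3775 regions past that limit, 37 higher and 27 lower, with a median difference of 0.01. Intragenic regions had 2.81% of 13121, 151 higher and 218 lower, and intergenic regions 4.39% of 4715, 103 higher and 104 lower. The medians of the 3 classes lay between -0.01 and 0.01.

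The sedentary libraries were not alike at genes of the muscle fiber. At 37 matched regions nearest to sarcomere and creatine kinase genes, Sed replicate 2 was above Sed replicate 1 at 35, by a median of 0.33, while the 2 Ex libraries differed by a median of -0.06. Median levels over these regions were -0.25 in both Ex libraries, -0.28 in Sed replicate 1 and 0.07 in Sed replicate 2. Over all matched regions Sed replicate 2 was the higher at 10677 of 21611. At 14 regions of fast contractile genes it was above Sed replicate 1 at 13, and at 22 regions of calcium handling genes at 20. At 16 endothelial regions it was above at 6. The bulk muscle cannot separate the number of nuclei of a cell type from the level of the mark in each. Medians of several gene lists and of the regions of lower H3K27ac in Ex are given with and without Sed replicate 2. Single regions and the remaining lists are not given without it.

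The muscle label fits its markers in both groups. Peaks were nearest to 8 of 8 fiber genes in each list (Acta1, Ckm, Tnnt3, Tnnc2, Ttn, Ryr1, Cacna1s and Myh4), 15 of whose regions matched, with a median difference of -0.12. Their summed levels, taken as log2 of the sum over matched regions, were 3.56 and 3.55 in Ex and 3.39 and 3.84 in Sed, so the Sed libraries lay on either side of Ex. The cardiac genes Myh6 and Nppa, the liver genes Alb, Ttr and Serpina1a, and the Schwann cell gene Sox10 had no peak in either list. Other cell types of muscle were represented. Endothelial genes had peaks at 6 of 6 in both lists, satellite cell genes at 5 of 5, fibro-adipogenic genes at 5 of 5, macrophage genes at 5 of 6 in Ex and 3 of 6 in Sed, and adipocyte genes at 3 of 5 in Ex and 1 of 5 in Sed. The number of peaks at these genes was 28 in Ex and 24 in Sed for endothelial genes, 8 and 16 for satellite cell genes, 19 and 12 for fibro-adipogenic genes, 8 and 5 for macrophage genes and 6 and 4 for adipocyte genes. Within the macrophage and adipocyte lists the genes did not go the same way. Ptprc, the general leukocyte marker, had 3 peaks in Ex and 0 in Sed while Mrc1, a macrophage receptor gene, had 1 and 2, and the adipocyte genes Adipoq and Fabp4 had 3 and 0, and 2 and 4.

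Nearest genes were described through 25 lists of pathways and cell types. Their regions passed 1.5-fold 24 times among 728 list entries, or 3.30%, against 2.96% of all matched regions. In the lists whose members were nearest to more than 20 regions the medians ran from -0.13 to 0.11, against 0 over all regions. Shares without overlap are to be read against 28.0% higher and 26.9% lower over all regions. For each list the 3 regions with the largest differences without overlap are named where it has them, 72 regions in all. Of these, 34 had the opposite sign without the width correction and 31 with input subtracted, and 18 kept their sign under both. Among the 18 were regions of Myl2, Orai1, Slc2a1, Bdh1, Mef2d, Tead1, Egr1, Angpt2, Cldn5 and Cspg4. A kept sign is not a kept size. With input subtracted the Mef2d difference shrank from -0.62 to -0.04, and that of Myl2 grew from -0.51 to -0.78.

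Contractile genes gave no shared direction. At the 14 regions of fast contractile genes, 1 was higher and 2 were lower without overlap, and the median of -0.08 became 0.10 without Sed replicate 2. A region 40.7 kb upstream of Myl1, which encodes a fast myosin light chain, was at -1.08 in both Ex libraries and at -0.68 and -0.01 in Sed, and its difference of -0.74 was 0.06 with input subtracted. Tnnt3, the fast troponin T gene, went the other way, with 0.12 and -0.02 in Ex and -0.59 and -0.30 in Sed. Its Ex peak was 5303 bases wide against 8501 in Sed, and its difference of 0.49 was -0.14 without the width correction. At 6 regions of slow contractile genes, Tnni1 and Tpm3 were higher in Ex (0.37 and 0.27) and Myl2 lower (-0.51). Without the width correction Tnni1 was at a difference of -0.03 and Tpm3 of -0.43, and with input subtracted Tnni1 was at -0.39.

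Of the 37 regions of sarcomere and creatine kinase genes, 4 were higher and 7 lower without overlap. The median of -0.07 became 0.11 without Sed replicate 2 and 0.04 with input subtracted. Ttn, the gene of the giant spring protein titin, had 1 region past 1.5-fold in each direction. The region upstream was at -1.06 and -0.81 in Ex and at -2.28 and -1.22 in Sed, and the one 13.9 kb into the gene was at -1.04 and -1.36 in Ex and at -0.88 and -0.17 in Sed. With input subtracted the latter had a difference of 0.14.

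Calcium handling genes had the largest share of lower regions among the pathway lists, with 10 of 22 lower and 3 higher. Their median was -0.13, and it was -0.04 without Sed replicate 2, -0.25 without Sed replicate 1, -0.02 with input subtracted, and 0.01 among regions above the median level. Cacnb1, which encodes a subunit of the calcium channel that triggers contraction, was at -0.08 and -0.22 in Ex and 0.39 and 0.37 in Sed. Its Ex peak was 4345 bases wide against 2492 in Sed, and its difference of -0.53 was 0.32 without the width correction. Orai1, the store-operated calcium channel gene, was at -1.19 and -0.82 in Ex and -0.76 and -0.10 in Sed. Its difference of -0.57 was -0.47 without the width correction and -0.10 with input subtracted. Against this direction, the promoter of Casq1, the main calcium buffer of the sarcoplasmic reticulum in fast fibers, was at 0.71 in both Ex libraries and at -0.21 and 0.24 in Sed, a difference of 0.69. Its difference was -0.22 without the width correction and -0.20 with input subtracted.

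The medians of metabolic gene lists were small and moved with the processing. At 43 regions of fatty acid uptake and oxidation genes, 17 were higher and 9 lower without overlap, with a median of 0.07 that was -0.05 without the width correction and 0.00 with input subtracted. Cpt2, which encodes the inner carnitine palmitoyltransferase of mitochondria, was at 0.60 and 0.74 in Ex and at 0.08 and 0.23 in Sed, but its difference of 0.51 was -0.10 without the width correction and -0.20 with input subtracted. At 41 regions of respiratory chain and citric acid cycle genes, 18 were higher and 9 lower, with a median of 0.06 that was -0.09 without the width correction, 0.17 with input subtracted, 0.02 without Sed replicate 1 and 0.14 without Sed replicate 2. Subunits of the same complex differed in opposite directions here. Uqcrc1, at 0.23 and 0.37 in Ex against -0.15 and -0.16 in Sed, was higher, and Uqcrc2, at 0.13 and 0.18 against 0.65 and 0.53, was lower. Without the width correction the differences were -0.05 and 0.23.

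Glycolysis and glucose uptake genes had 12 higher and 11 lower of 54 regions and none past 1.5-fold. Slc2a1, the basal glucose transporter gene, was at 0.58 and 0.69 in Ex and at 0.24 and 0.11 in Sed. Pkm, which encodes muscle pyruvate kinase, was at 0.24 and 0.22 in Ex and at 0.63 and 0.66 in Sed, although its difference was -0.02 without the width correction and 0.20 with input subtracted.

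Regulators of oxidative metabolism included several of the lower regions. At 34 regions of PGC1, ERR and mitochondrial regulator genes, 7 were higher and 10 lower, with a median of -0.05 that turned to 0.02 without the width correction and 0.04 with input subtracted. Upstream of Nrf1, which encodes a nuclear respiratory factor, the levels were -1.73 and -1.74 in Ex and -0.97 and -0.78 in Sed. Esrrb, an ERR gene, had a region at -1.28 and -1.24 in Ex and at -0.63 and -0.60 in Sed. Input was lower in Ex at both, and with input subtracted the differences were 0.38 and 0.05. Tfam, the mitochondrial DNA packaging factor gene, was at 0.17 and 0.35 in Ex and at 0.70 and 0.65 in Sed, and there the input was the higher in Ex, at 0.37 against -0.13. Its Ex peak was 2789 bases wide against 1917 in Sed, and without the width correction its difference of -0.42 was 0.17.

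Of 46 regions of PPAR, RXR and NR4A receptor genes, 13 were higher and 16 lower, with a median of -0.09 that was 0.02 with input subtracted. The Pparg region at its start was at -0.09 and 0.01 in Ex and at 0.31 and 0.45 in Sed, a difference of -0.43 that was 0.35 without the width correction. Nr4a2 was at 0.42 and 0.04 in Ex and at 0.53 and 0.75 in Sed, a difference of -0.41 that was 0.49 with input subtracted. The MEF2 and class II HDAC genes had 9 higher and 8 lower of 45, and the Mef2d region 7.89 kb upstream was at -0.67 and -0.69 in Ex and at -0.21 and 0.09 in Sed. The Mef2d difference of -0.62 was -1.49 without the width correction and -0.04 with input subtracted. Myogenic factor genes had 12 higher and 20 lower of 58. Myog, the myogenin gene, was higher in Ex, with 0.16 and 0.11 against -0.32 and -0.53, and Tead4 was lower, with -1.67 and -2.26 against -1.28 and -1.08. The Myog difference of 0.55 was -0.21 without the width correction and -0.17 with input subtracted, and the Tead4 difference of -0.79 was 0.07 with input subtracted.

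The calcineurin and NFAT list had 33 regions, of which 1 was over 2-fold higher and 2 lower, against 0.0925% of all matched regions. At 1.5-fold, 4 of its regions (12.1%) passed, 2 in each direction, against 2.96%. With input subtracted, Ex and Sed replicates overlapped at all 3 regions over 2-fold. The list was otherwise balanced, with 10 higher and 10 lower in all and a median of -0.02. The list was chosen with results of these data known, so this count is a description.

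Early response genes differed little on the whole. Of 56 AP-1 and early response regions, 21 were higher and 15 lower, with a median of 0.04. Jun, which encodes an AP-1 subunit, had 5 matched regions. The one 54.0 kb upstream was at -0.27 and -0.11 in Ex and at -0.66 and -0.996 in Sed, with a difference of -0.16 without the width correction, and the one at the gene was at 0.69 and 0.63 in Ex and at 0.62 and 0.64 in Sed. The Fos promoter was at 0.87 and 0.96 in Ex and at 0.66 and 0.61 in Sed, with 0.28 between the means, 0.04 without the width correction and -0.08 with input subtracted. A region upstream of Egr1 was lower in Ex by 0.52 on the log2 scale, with -0.84 and -0.72 against -0.28 and -0.27.

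Circadian clock genes had 10 higher and 7 lower of 33 regions. Per3, a repressor of the clock, was at 0.74 and 0.68 in Ex and at 0.05 and 0.08 in Sed. Its difference of 0.64 was -0.01 without the width correction. Per2 regions differed by -0.15 and -0.07, and 5 regions of Arntl, which encodes the activator BMAL, ran from -0.27 to 0.35.

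Genes of vessels and matrix were described next. At 35 regions of angiogenesis genes, 15 were higher and 10 lower, and the median was 0.11, between 0.04 and 0.14 over all alternatives tried. Angpt1, an agonist of the TIE receptor system, was at -0.886 and -1.005 in Ex and at -1.503 and -1.639 in Sed, a difference of 0.62 that was -0.13 with input subtracted. Angpt2, its antagonist, was also higher in Ex, with -0.32 and -0.47 against -0.85 in both Sed libraries. Epas1, a hypoxia-inducible factor gene, was at 0.77 and 0.73 in Ex and at 0.36 and 0.30 in Sed. Its Ex peak was 4551 bases wide against 7801 in Sed, and its difference of 0.42 was -0.31 without the width correction. The 36 matrix regions had 10 higher (27.8%) and 6 lower (16.7%), with Lamc1 higher by 0.60 and Mmp14 lower, at -1.007 and -1.001 in Ex against -0.54 and -0.62 in Sed. Without the width correction the Lamc1 difference was -0.09 and that of Mmp14 0.04, and with input subtracted Mmp14 was at 0.23. The matrix median of 0.08 was -0.04 without the width correction and 0.19 with input subtracted.

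Growth and atrophy genes had 19 higher and 17 lower of 63 regions. Igf1r, the receptor of insulin-like growth factors, had the largest of these, at -0.36 and -0.04 in Ex and -1.13 and -1.02 in Sed. Its input was 0.60 in Ex and -0.36 in Sed, and with input subtracted its difference was -0.10. Ddit4, which encodes an inhibitor of mTOR signaling, was at 0.66 and 0.73 in Ex and at 0.02 and -0.05 in Sed. It was one of the regions that remained higher with input subtracted, at 0.53, a value in which width cancels. Without the width correction, and with no input subtracted, its difference was -0.14. Insr, the insulin receptor gene, was lower, at -1.59 and -1.46 in Ex against -1.15 and -0.50 in Sed, and its difference of -0.71 was 0.16 with input subtracted. At the neuromuscular junction, 5 of 19 regions were higher and 4 lower. Etv5 was higher at both of its named regions (0.63 and 0.54), and Chrna1, a subunit of the acetylcholine receptor, was lower, at -0.04 and -0.09 in Ex against 0.32 and 0.45 in Sed. With input subtracted the Etv5 differences were -0.03 and -0.11, and without the width correction the second was -0.13. The Chrna1 difference of -0.46 was 0.27 without the width correction.

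Lists of other cell types were small. The 16 endothelial regions had 6 higher and 4 lower, with a median of 0.20 that was 0.06 without Sed replicate 2, 0.04 without Ex replicate 1 and 0.00 with input subtracted. A region nearest to Cldn5, an endothelial tight junction gene, was at -0.36 and -0.51 in Ex and at -1.101 and -0.867 in Sed. The 12 smooth muscle and pericyte regions had 2 higher and 2 lower, and Cspg4, the pericyte proteoglycan gene, was at -0.72 and -0.82 in Ex and at -1.58 and -1.69 in Sed. At 5 Schwann cell regions the median was -0.26, with 0 higher and 3 lower, and Mbp, the myelin basic protein gene, was at -1.23 and -1.35 in Ex and at -0.55 and -0.88 in Sed, with a difference of 0.13 with input subtracted. The 5 adipocyte regions had a median of -0.21 that was 0.32 without the width correction. The 8 satellite cell regions had 2 in each direction, 5 fibro-adipogenic regions had 2 higher and 1 lower, and the macrophage list had 2 regions, with Adgre1 at a difference of -0.31, or 0.05 with input subtracted.

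Several loci were followed whatever their values. Myh4, the gene of the fastest myosin of quadriceps, had 2 matched regions, both overlapping regions of lower H3K27ac in Ex. At 2.67 kb from the start the levels were -0.82 and -0.78 in Ex and -0.60 and -0.20 in Sed, a difference of -0.41, and at 3.03 kb upstream the groups overlapped, with -0.23 between the means. Without the width correction the Myh4 differences were -0.14 and 0.10, and with input subtracted -0.34 and 0.10. Myh1 had 1 region with a difference of 0.09. Myh2, the gene of the oxidative fast myosin, had 2 peaks in the Ex list that overlapped none in Sed and no peak in the Sed list. Myh7 and Myh6, the slow and cardiac genes, had no peak in either. Pvalb and Ckm had peaks in both lists but no matched pair.

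Ppargc1a, which encodes the coactivator PGC1α, had 3 matched regions, with differences of 0.03, -0.05 and 0.05. At 1.098 kb from the start the levels were 0.34 and 0.31 in Ex and 0.36 and 0.37 in Sed. The H3K27ac peaks matched there had a difference of -0.63. Vegfa, the angiogenic growth factor gene, showed the same contrast at 2.80 kb from its start, with 0.46 and 0.50 in Ex and 0.31 and 0.40 in Sed for H3K4me2, a difference of 0.12, and -1.19 for H3K27ac. The other Vegfa region differed by 0.11 in H3K4me2 and by 0.15 in H3K27ac. Neither the Ppargc1a region at 1.098 kb nor the Vegfa region at 2.80 kb overlapped a study region of lower H3K27ac in Ex. The Ppargc1a region 0.197 kb upstream did. H3K27ac differences are per kb between separately made lists, and were not repeated without the width correction or with input subtracted. The H3K27ac values come from other libraries of the same muscle and treatment. Whether those used the same animals is not stated in the sources used here.

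Ngdn, used by the study as a locus that does not vary between muscles, differed by -0.19 without overlap of replicates. That difference was 0.07 without the width correction and 0.37 with input subtracted. Acadl, the long-chain acyl-CoA dehydrogenase gene, was at 0.52 and 0.50 in Ex and at 0.83 and 0.79 in Sed near its start. That difference of -0.31 was -0.08 without the width correction and -0.49 with input subtracted. The second Acadl region differed by 0.06, and by -0.13 and -0.30 under the same changes. Mb, the myoglobin gene, had 1 matched region at -1.56 and -1.51 in Ex and at -1.48 and -0.73 in Sed, a difference of -0.44, with Sed replicate 1 close to the Ex libraries. The Mb difference was -1.27 without the width correction and 0.49 with input subtracted. Mstn, the gene of the growth inhibitor myostatin, had 1 region lower by 0.20 on the log2 scale and 1 higher by 0.47. Without the width correction the Mstn differences were -0.16 and 0.53, and with input subtracted -0.21 and -0.18. Nr4a1 also had 1 in each direction (0.30 and -0.21), and the Nr4a3 promoter differed by -0.09. With input subtracted the Nr4a1 differences were -0.04 and -0.15. The skeletal actin gene Acta1 had regions at differences of -0.24 and 0.09, which were -0.42 and -0.02 with input subtracted.

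**Figure D4:**
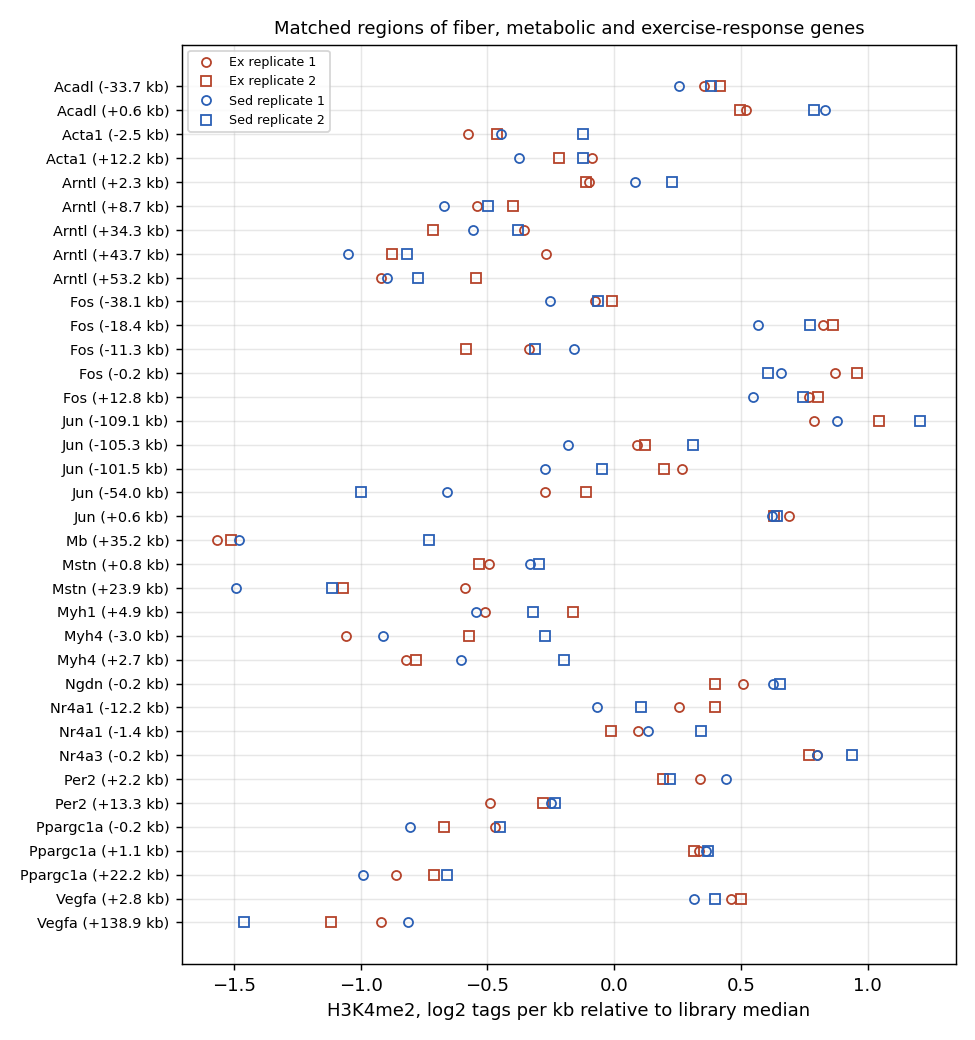
H3K4me2 levels (horizontal, log2 tags per kb relative to the library median) of each matched region of the loci followed, one row per region with each library as a point. At most loci the Ex and Sed points overlap or lie close together, as at Ppargc1a, while at Myh4 and Mb Sed replicate 2 lies to the right of the other 3 libraries.

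Few genes had a shared direction over all their regions. Of 13976 genes with a matched region, 757 had at least 4, and in 5 of these every region lay apart in the same direction. A330076C08Rik, Gapvd1, Hspb1 and Slc38a10 were higher in Ex and Tcf7l1 lower. Hspb1, which encodes a small heat shock protein of muscle, was at 0.36 and 0.26 in Ex and at -0.13 and 0.12 in Sed at its start, and its 4 regions differed by 0.15 to 0.44. Its mean input difference was 0.63, and with input subtracted its mean difference was -0.34. Tcf7l1, a repressor of the WNT pathway, differed by -0.34 to -0.19 over 4 regions, and by 0.19 on average with input subtracted. The 640 regions past 1.5-fold were spread over 286 genes with a higher region and 343 with a lower one, and 10 genes had both. At least 2 such regions in a direction were seen at 5 genes for higher, among them Twist2, Mlxip and Tgfbr3, and at 6 for lower, among them Kbtbd11 and Laptm5.

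H3K4me2 was next read where H3K27ac differed with exercise, in lists that came from other libraries but possibly from the same animals. The study listed 2280 regions of lower H3K27ac in Ex and 382 of higher, here called hypoacetylated and hyperacetylated. Of the hypoacetylated regions, 920 (40.4%) overlapped an Ex H3K4me2 peak, 1175 (51.5%) a Sed peak and 906 neither. They overlapped 544 matched H3K4me2 regions, at which the median H3K4me2 difference was -0.12. Without overlap of replicates, 64 (11.8%) were higher and 181 (33.3%) lower, against 28.0% and 26.9% of all regions, and at 1.5-fold 2 were higher and 29 lower.

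That lower median rested on 1 library. The median levels at the 544 regions were -0.53 and -0.57 in Ex, -0.54 in Sed replicate 1 and -0.27 in Sed replicate 2, and Sed replicate 2 was above Sed replicate 1 at 481 of them. The 4 pairings of an Ex and a Sed library gave medians of 0.03 and -0.00 against Sed replicate 1 and of -0.23 and -0.28 against Sed replicate 2. The median difference was 0.01 without Sed replicate 2 and -0.25 without Sed replicate 1. With input subtracted it was 0.02. The matched H3K27ac peaks of 235 of these regions had a median difference of -0.95. Those H3K27ac libraries also defined the hypoacetylated regions, so the sign of this value was set by that choice.

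The hyperacetylated regions overlapped 42 matched regions, and 246 of the 382 overlapped no H3K4me2 peak in either list. The median difference was 0.08, with 13 (31.0%) higher and 3 (7.14%) lower without overlap, and 3 and 0 at 1.5-fold. Library medians were -0.989 and -0.791 in Ex and -0.878 and -0.998 in Sed, so the groups overlapped, and the SD over the 4 pairings was 0.11. Leaving out 1 library at a time gave medians between 0.04 and 0.15. Across the 11535 matched regions with a matched H3K27ac pair, the differences of the 2 marks had a Spearman rho of 0.077. H3K27ac itself passed 1.5-fold without overlap at 7.85% higher and 11.4% lower of 18426 matched peaks.

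**Figure D5:**
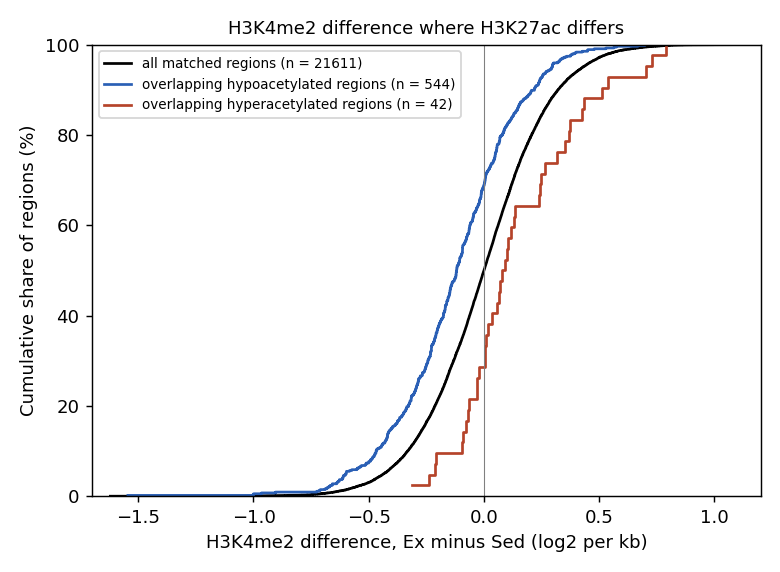
Cumulative share of regions (vertical, percent) by the Ex minus Sed difference of H3K4me2 (horizontal, log2 tags per kb) for all 21611 matched regions (black), the 544 that overlapped hypoacetylated regions (blue) and the 42 that overlapped hyperacetylated regions (red). The blue curve lies to the left (median -0.12) and the red to the right (median 0.08) of the black, and the blue shift was 0.01 without Sed replicate 2.

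Peaks found in one list only were weak. In the Ex list 7950 peaks (23.4%) overlapped none of the Sed list, and in the Sed list 9654 (27.4%) overlapped none of the Ex list. Their median widths were 894 and 1021 bases, against 2024 and 2077 among matched peaks. Their median levels were -0.89 and -0.75, here relative to the median over all peaks of the list. That zero is not the one used for matched regions. Only 5.48% and 9.27% were above the median of their list. The list of the untreated Quad set held a peak at 47.9% of those of Ex and 54.2% of those of Sed, against 81.7% and 81.8% of all peaks of each list. Hypoacetylated regions overlapped 280 of the 7950 Ex-only and 581 of the 9654 Sed-only peaks, against 544 of the 21611 matched regions.

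The 5 strongest peaks without overlap in the other list were taken from each list, with levels again relative to the median of the whole list. In Ex they were nearest to Vcpkmt (level 1.04), Map1lc3b (0.98), 5031425E22Rik (0.97), Ints10 (0.95) and Eri3 (0.95), and in Sed to Hint3 (1.43), Trmt12 (1.29), Smug1 (1.28), Fosb (1.28) and Cstl1 (1.21). Map1lc3b encodes the autophagosome protein LC3B, and Fosb an AP-1 subunit. Each of these 10 overlapped a peak in the Quad, Wt and soleus H3K4me2 lists.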

How the data were processed

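Reads of 75-base single-end ChIP-seq libraries were aligned to mm10 with Bowtie (1.2 per the labels), and peaks were called with HOMER over both replicates of a group against that group's input, as the file headers record. The deposited tag columns are log2 values scaled to total tags within each list, taken to be DESeq2's regularized logarithm, and the deposited lists keep regions over 2-fold above input by the authors' adjusted p-value. The ATAC-seq list holds a deposited signal, tags scaled by the authors, of which the intervals were used here. The differential H3K27ac lists were used for their intervals only, and their columns of fold changes and p-values were not used.

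Peaks of the Ex and Sed lists were paired 1 to 1 at a reciprocal overlap of at least 50% of bases. The log2 width in kb was subtracted, each library was centered on its median over the pairs, and group means of 2 libraries were compared. A region was counted when the difference passed 2-fold or 1.5-fold with no overlap of replicates. Matching and counting were tested on simulated libraries with planted changes, all built from the Sed list. Paired peaks there had equal widths and no input, so that test cannot address the effects of width, input or separate lists. No filter on low levels was applied. Depths of 19560570 to 21639809 tags limit regions of low level most, and 2 libraries per group limit every comparison. Same-numbered replicates did not deviate together (correlation -0.03), so they were not paired. Python 3.11.15, numpy 2.4.6, pandas 2.3.3, scipy 1.17.1 and matplotlib 3.10.9 were used. Alternatives were a stricter overlap of 80%, no width correction, quantile normalization, an adjusted p-value under 0.001, only levels above the median, input subtraction, a replicate block and leaving out each library. One more, pairs of widths within 1.1-fold, was chosen after seeing the data.

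The regions and gene lists were chosen with earlier results of these data known. Named regions were those over 2-fold, the 10 highest and 10 lowest differences, genes with at least 4 regions all in the same direction, the 3 largest of each list (without overlap of replicates), fixed loci, the 5 strongest peaks of each list without overlap in the other, and those nearest to the 2-fold limit. Motifs were searched in 500-base windows of the RefSeq GRCm38.p6 genome. Of the promoter regions whose gene had a RefSeq start, 98.4% lay within 1 kb of it. The nearest gene, as the authors assigned it, is not necessarily the gene a region regulates. One region over 2-fold, counted but not named or drawn, and 1 marker gene are not reported here.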

Additional observations from a re-analysis of the deposited data

How the results depend on the processing

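The median difference at hypoacetylated regions ran from -0.25 to 0.02 over the alternatives, and turned positive with input subtracted (0.02) and without Sed replicate 2 (0.01). All values lay within 1 SD (0.157) of the main one. That SD is taken over single-library pairings and is widened by the gap between the Sed libraries, so it says little about stability. The median at hyperacetylated regions stayed within 1 SD (0.106) of 0.08 but ran from 0.004087 at an adjusted p-value under 0.001 to 0.148 without Ex replicate 1, and was 0.0139 above the median level and 0.0225 at an overlap of 80%. Quantile normalization gave 20, 641 and 24 regions for the 2-fold, 1.5-fold and gene list counts, close to the main 20, 640 and 24. The replicate block, pairing same-numbered libraries, gave 20, 641 and 24, and it moved no median. The numbers are not known to mark shared animals or days.

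The 2-fold count of 20 became 2 at a stricter overlap of 80%, 249 without width correction, 2 at an adjusted p-value under 0.001, 3 above the median level, 172 with input subtracted and 3 among pairs of near-equal width, the alternative chosen after seeing the data. Leaving out any of the 4 libraries raised it, to between 34 and 50. In the same order the 1.5-fold count of 640 became 83, 1811, 234, 167, 1856 and 74, and 862 to 1121 on leaving out a library. Without overlap to require of a lone library, more regions pass. The rank correlation of mean levels, 0.913 (SD over library pairs 0.00257), became 0.938, 0.975, 0.833, 0.586, 0.667 and 0.958, and 0.899 to 0.905. The gene list count of 24 became 4, 83, 6, 4, 35 and 7, and 27 to 40. The stricter overlap, the adjusted p-value, the level and the width alternatives keep fewer regions, 11103, 15468, 10805 and 6780 of 21611. For the other changes the cause was not tested.

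With input subtracted, 25 single regions changed sign: Angpt1 -0.132, Atp5s 0.0924, C030034L19Rik -0.0733, Camk2d 0.0137, Casq1 -0.200, Cdkl4 0.297, D930015E06Rik 0.0903, Esrrb 0.0531, Etv5 -0.0341, Gm13580 0.394, Gm9926 -0.296, Igf1r -0.0980, Insr 0.155, Kif26b 0.0910, Ksr1 -0.0830, Mir5709 -0.245, Myl1 0.0637, Nrf1 0.384, Onecut1 0.0317, Plce1 0.148, Ppp3ca 0.172, Rab3gap1 -0.137, Tead4 0.0736, Tmem100 0.106 and Ttn 0.137. Without width correction, 8 did: Casq1 -0.217, Ddit4 -0.140, Ier5 0.02035, Jun -0.159, Lamc1 -0.0880, Nrf1 0.0528, Per3 -0.0081 and Uqcrfs1 0.129. These counts cover regions past 1.5-fold, and turns of smaller differences are given beside the regions named from the gene lists. No other alternative turned the sign of such a region where it could be measured.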

Other observations

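Open chromatin and the soleus, a slow muscle, sorted the matched regions by level more than by difference. The 14684 regions that overlapped an ATAC-seq peak of quadriceps had a median H3K4me2 level of 0.24 and a median difference of 0.00, and 2.13% of them passed 1.5-fold. The 6927 without one had a median level of -0.62 and a median difference of -0.01, and 4.72% passed. Of the 19858 regions also found in the soleus H3K4me2 list, 2.54% passed 1.5-fold, 233 higher and 271 lower in Ex. Of the 1753 not found there, 7.76% passed, 58 higher and 78 lower, and their median level was -0.999.

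Peak width differed between the lists where the marked interval was shared. Ex peaks were over 1.5 times wider than their Sed partner at 1180 regions (5.46%) and narrower to that extent at 2088 (9.66%). At the wider ones the median H3K4me2 difference per kb was -0.31 and the median input difference -0.39, and at the narrower ones they were 0.25 and 0.27.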
